A study of Mus musculus with 16 samples.

Results

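Cytochrome P450 enzymes are haem proteins that insert oxygen into sterols, steroid hormones, retinoids, fatty acids and foreign chemicals. Most draw their electrons from the reductase Por in the endoplasmic reticulum, while those of mitochondria use the Fdxr and Fdx1 relay. The drug and toxin oxidising CYP2 and CYP3 genes are best known from liver, lung and olfactory mucosa, and the steroid forming ones from adrenal and gonad. In the thymic medulla, mature epithelial cells that express the regulator Aire are known to transcribe many genes of other organs, and in people with AIRE mutations several P450 enzymes are targets of autoantibodies.

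The cytochrome P450 genes were taken as the rows of the count table whose symbol is Cyp followed by a family number, a subfamily letter and a gene number, which gave 91 of 23420 genes. RNA had been sequenced from sorted mouse thymic epithelial cells of 3 kinds. These were the cortical population (cTEC) and, split by surface MHC class II, the low (mTEClo) and high (mTEChi) medullary populations, each from Psmb11 +/+ mice (WT) and from Psmb11 -/- mice (KO). Psmb11 encodes a catalytic subunit of the thymoproteasome, the proteasome form of cTEC. There were 2 libraries for each cTEC group and 3 for each mTEClo and mTEChi group, 16 in all, and no group had been treated. All groups carry the strain label C57BL/6-derived BAC, with no word on what the BAC holds or how the allele was made. The labels give an age of 6 to 8 weeks and 11 thymi in 1 place and 7 days and 14 mice in another, and the number of animals behind a library is not stated. Replicates may therefore be technical, and the p-values measure only the spread between these libraries.

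Counts in genes ran from 64753610 to 146707262 per library. Psmb11 itself had 12756 and 15214 counts in the cTEC WT libraries and 0 and 157 in the cTEC KO libraries. In mTEClo it had 707 to 1220 counts in WT and 111 to 177 in KO, and in mTEChi 598 to 1672 in WT and 74 to 172 in KO, so no library went against its genotype label. The 13 measured cortical markers summed to 7660 to 8869 CPM (counts scaled to a common library size with TMM factors) in cTEC WT and to 1741 to 1781 CPM in mTEChi WT, and Aire, the mature medullary regulator, reached 1446 to 1625 CPM in mTEChi WT against 14 and 11.2 CPM in cTEC WT. The cTEC KO libraries stood apart from each other, with 34 P450 genes at 0 counts in replicate 1 and 60 in replicate 2. In cTEC KO, 18 P450 genes had at least 20 counts in 1 library and 0 in the other, 19.8% of the 91 against 9.59% of all genes, so levels in that group are given by library. The biological coefficient of variation, the fitted spread between replicates, was 0.652 in cTEC, 0.131 in mTEClo and 0.113 in mTEChi.

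The mTEChi libraries held transcripts of nearly the whole family. A gene was called detected in a group when it reached 0.1 CPM, 6.5 to 15.9 counts depending on the library, in every library of the group. By that rule 80 of the 91 P450 genes (87.9%) were detected in mTEChi WT, 44 (48.4%) in mTEClo WT and 32 (35.2%) in cTEC WT. Over all 23420 genes the shares were 81.2%, 69.9% and 66%. In the KO libraries 85 P450 genes (93.4%) were detected in mTEChi, 43 (47.3%) in mTEClo and 27 (29.7%) in cTEC, beside 81.4%, 69.6% and 60.2% of all genes. The cTEC KO count rests on replicate 2, which alone held 28 at 0.1 CPM, against 53 in replicate 1. Every P450 gene had at least 1 count in the mTEChi WT group, whereas 19 had none in mTEClo WT and 36 none in cTEC WT, where 3 counts per library, the most that a count of 0 allows, came to 0.0343 to 0.0345 CPM. Such limits cover counting error only. Whether the P450 share passed that of all genes depended on the level chosen. At 1 CPM in every library, 53 of the 91 P450 genes were detected in mTEChi WT, beside 70.0% of all genes.

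**Figure D1:**
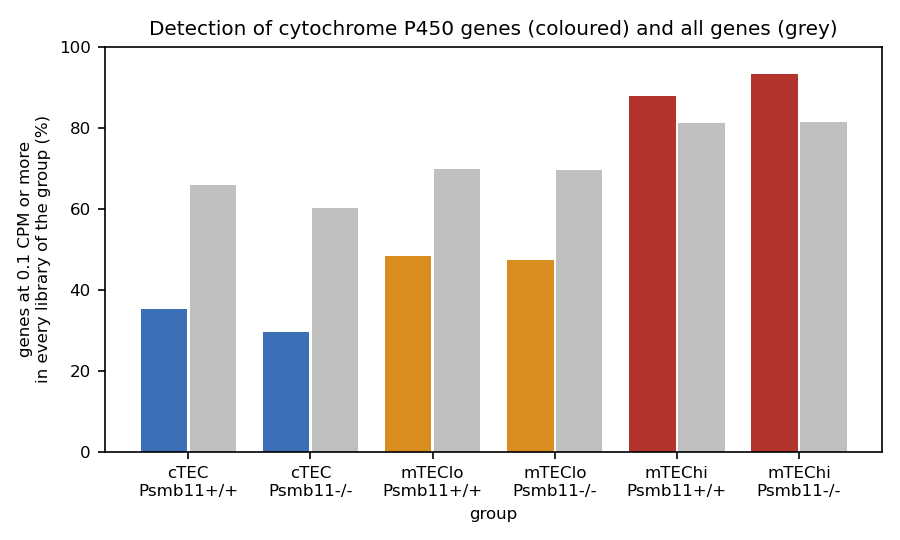
Share of cytochrome P450 genes (coloured bars, 91 genes) and of all genes in the table (grey bars, 23420 genes) at 0.1 CPM or more in every library of a group. The coloured bars rise from 35.2% in cTEC WT to 87.9% in mTEChi WT, and pass the grey bars in the mTEChi groups alone.

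Set out by pattern in the WT libraries, 31 P450 genes (34.1%) were detected in all 3 populations, against 64.5% of all genes. A further 35 (38.5%, against 10.6% of all genes) were detected in mTEChi alone, 13 (14.3%, against 5.0% of all genes) in mTEClo and mTEChi, and Cyp2d26 in cTEC and mTEChi. The remaining 11, which were Cyp2a22, Cyp2b9, Cyp2b13, Cyp2c38, Cyp2c66, Cyp2c67, Cyp2d11, Cyp2d13, Cyp2j8, Cyp4a31 and Cyp4a32, passed the rule in no WT population (12.1%, against 18.2% of all genes). In cTEC WT, 6 P450 genes (6.59%, against 2.36% of all genes) had at least 20 counts in 1 library and 0 in the other. Cyp2c37 (0 and 0.459 CPM in cTEC WT) and Cyp4f14 (0 and 0.39 CPM) thus fell under mTEChi alone. Cyp2b10 (0.0229 and 2.19 CPM in cTEC WT) fell under mTEClo and mTEChi. With counts thinned in expectation to the shallowest library, 88.2 to 90.9 P450 genes would keep a count in an mTEChi WT library, 57.8 to 61.0 in an mTEClo WT library and 42.9 to 45.9 in a cTEC WT library, the same order. In bulk samples such as these, fewer cells that express a gene and less RNA per cell cannot be told apart.

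The genes lie on 14 chromosomes, and 69 of the 91 sit in 10 runs of neighbours less than 500 kb apart. The largest runs held 14 Cyp2c genes on chromosome 19 (positions 39007019 to 40187286, build mm10, the build of the deposited coordinates) and 13 CYP2 genes on chromosome 7 (25802476 to 27158564). The Cyp2c run had 0 genes detected in cTEC WT, 1 in mTEClo WT and 11 in mTEChi WT, and the chromosome 7 run 5, 7 and 10. Neighbours can share sequence, which leaves the origin of some reads uncertain. Of 89 members with GENCODE M21 transcripts, 23 shared no stretch of 50 bases with a transcript of another gene, 22 shared at least 20% of their stretches and 3 at least 50%. Those 3 were Cyp2c40, Cyp2c67 and Cyp2c69, whose separate counts should be read together.

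**Figure D2:**
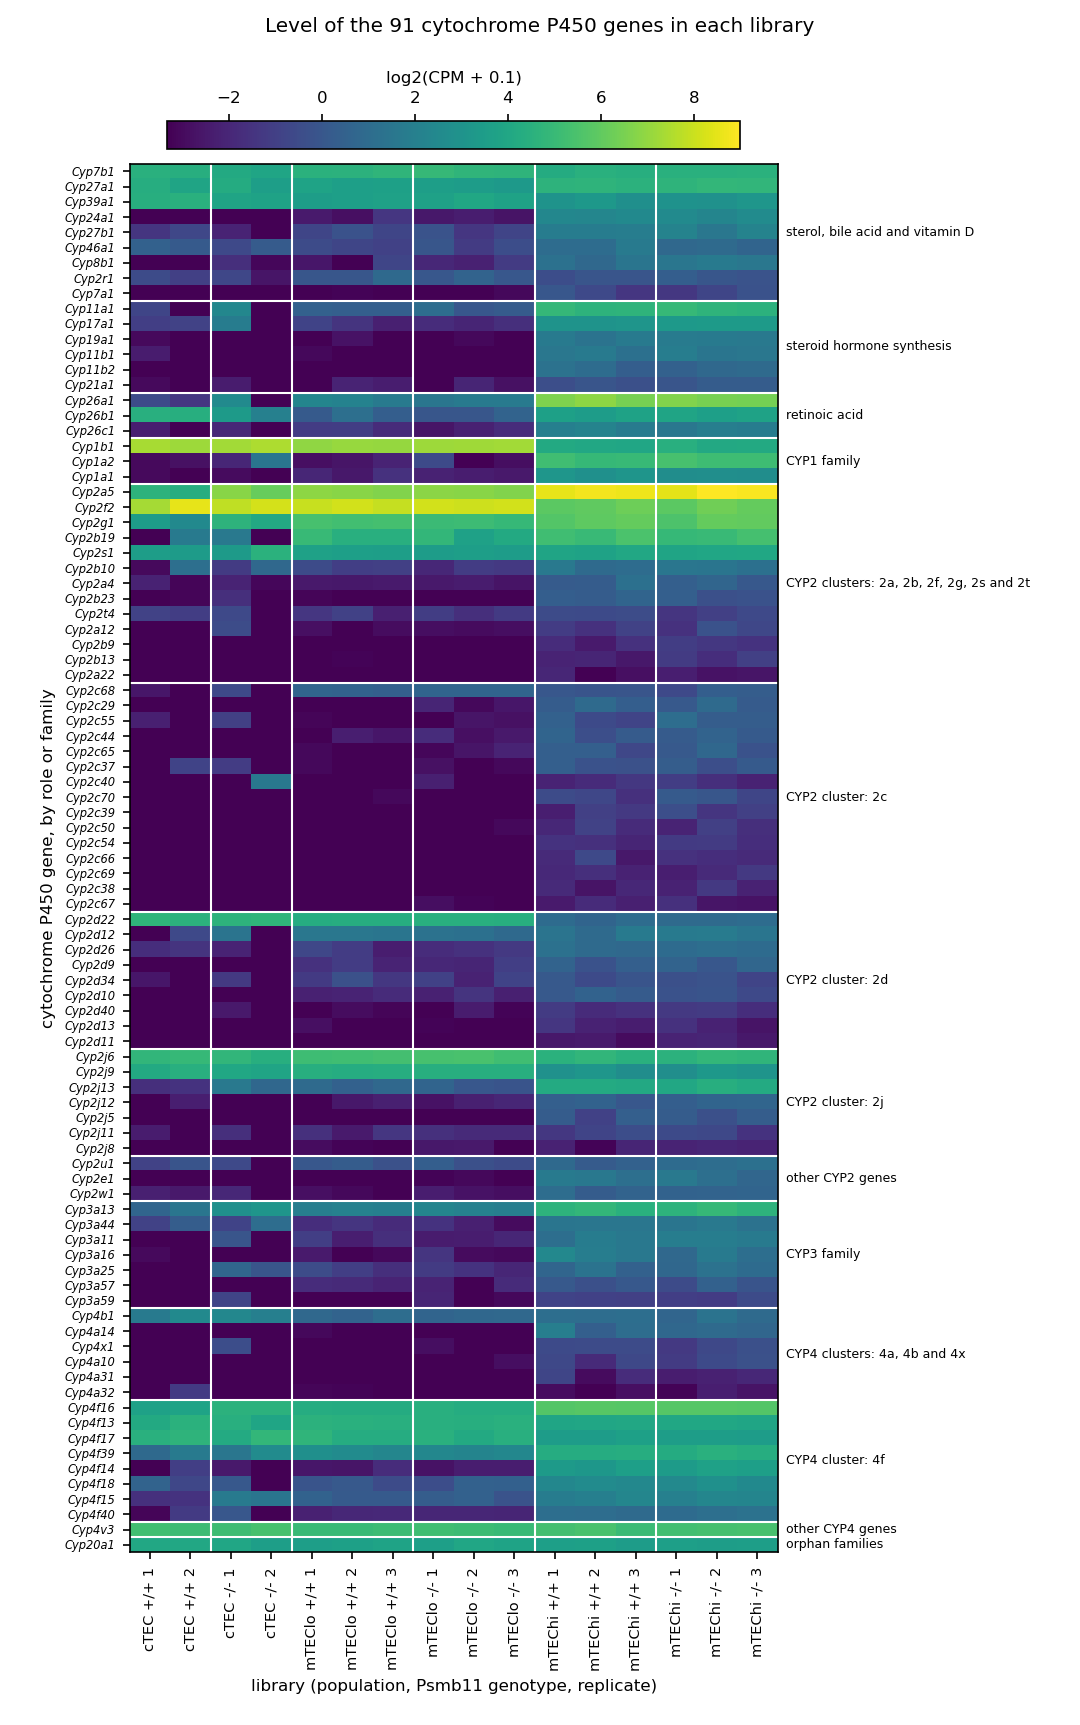
Level of each of the 91 cytochrome P450 genes (rows, grouped by role or family) in each of the 16 libraries (columns) as log2(CPM + 0.1). The 6 mTEChi columns at the right show a signal in nearly every row, while most CYP2C, CYP4A and steroid rows are at the bottom of the scale in cTEC and mTEClo, and single bright cells mark genes with counts in 1 cTEC KO library.

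A few genes carried most of the P450 transcript. Levels of different genes were compared on the authors' deposited RPKM values (reads per kilobase of gene, scaled to library size). Cyp2f2, known from the club cells of mouse airways where it oxidises naphthalene, stood at 107 ± 63.5 RPKM (SD, n = 2) in cTEC WT and 107 ± 10.8 RPKM (SD, n = 3) in mTEClo WT, 45.1% and 35.9% of the summed RPKM of the family. In mTEChi WT the lead passed to Cyp2a5, the mouse coumarin hydroxylase of liver and olfactory mucosa, with 196 ± 13.5 RPKM (SD, n = 3) or 39% of the sum. Next in mTEChi came Cyp26a1 at 47.3 ± 7.01 RPKM and Cyp2f2 at 30.5 ± 4.34 RPKM. The summed RPKM of the family was 238 in cTEC WT, 299 in mTEClo WT and 502 in mTEChi WT, and the number of genes over 1 RPKM was 18, 21 and 40.

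The comparison within the medulla asked which P450 genes differ between mTEChi WT and mTEClo WT, populations split by surface MHC class II. Of 88 P450 genes with enough counts to test, 70 were higher and 9 lower in mTEChi, 9 did not pass, and Cyp2a22, Cyp2d11 and Cyp4a32 had too few counts to test. The 9 were Cyp20a1, Cyp2r1, Cyp2d12, Cyp2d34, Cyp2c68, Cyp2j8, Cyp2t4, Cyp2u1 and Cyp4b1. The test was edgeR's quasi-likelihood F test on the 12 mTEC libraries, with p-values adjusted by Benjamini-Hochberg across the 19816 genes that entered the fit, called at 0.05. The difference was broad, since 42.8% of all genes tested were called higher and 36.8% lower, against 79.5% and 10.2% of the P450 genes tested. These P450 shares include 45 tested genes with a mean under 1 CPM over the 16 libraries, 40 of them among the 70 called higher. Many low genes entered the test only through their mTEChi counts, so the contrast of 79.5% with 42.8% is partly set by the filter. The same limit holds for the median below and for the counts per family that follow. Those counts too stand beside 42.8% and 36.8% of all genes. No separate share is given for genes under 1 CPM, a mean that itself includes the mTEChi libraries. All P450 genes above that level were tested. Of the 22 P450 genes with a mean of 10 CPM or more, 12 were higher and 9 lower (54.5% and 40.9%), beside 24.7% and 55.9% of all genes at that level. Of the 21 between 1 and 10 CPM, 18 were higher and 0 lower, beside 61.3% and 18.9%. The mean behind these classes includes the mTEChi libraries, and some genes reach 1 CPM mainly through them. Cyp1a1, for example, had a mean of 8.13 CPM in mTEChi WT and 0.156 CPM in mTEClo WT. A lower call was hardly open to such genes, so the shares between 1 and 10 CPM are also partly set in advance. The median log2 fold change of the 88 was 3.58, or 3.54 with the 17 tested genes that had no mTEClo WT count held at their lower bound, and 0.08 over all genes tested.

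**Figure D3:**
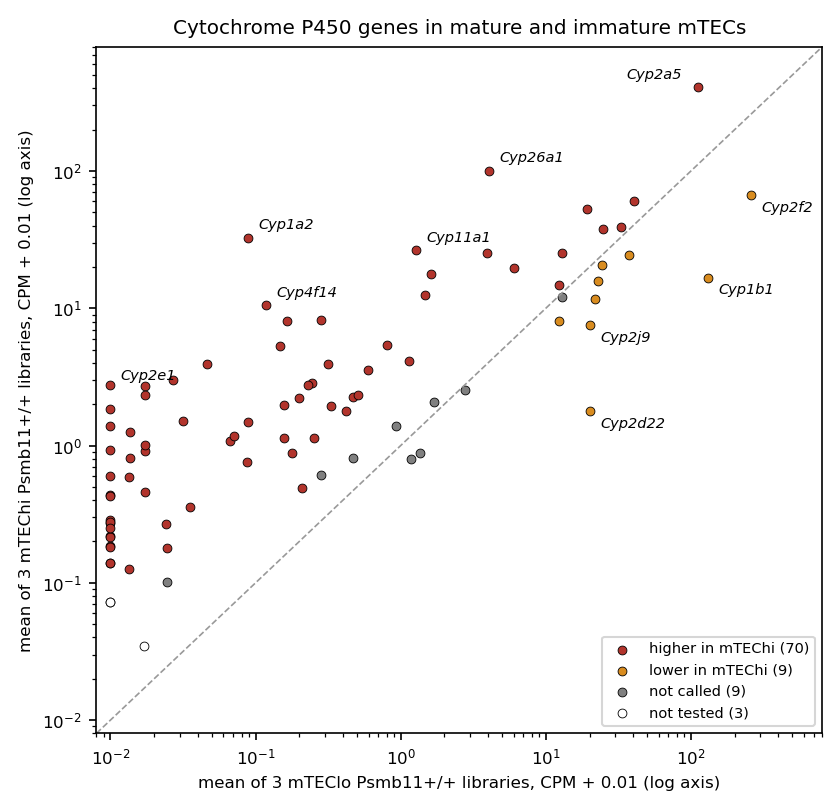
Mean level of each cytochrome P450 gene in the 3 mTEClo WT libraries (x axis) and the 3 mTEChi WT libraries (y axis), as CPM + 0.01 on log axes, with the dashed line at equality. The 70 red points are genes called higher in mTEChi and the 9 orange points genes called lower, all 9 of them above 10 CPM in mTEClo.

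Other cell types' genes moved along the same comparison. The 15 measured tuft cell markers were all lower in mTEChi WT (summed level 554 to 727 CPM) than in mTEClo WT (3019 to 3147 CPM). Of 11 dendritic cell and macrophage markers, 10 were higher, with a sum of 576 to 613 CPM in mTEChi WT and 79.3 to 82.0 CPM in mTEClo WT. B cell markers were higher in 5 of 6 cases (44.7 to 46.4 CPM against 12.8 to 16.3 CPM in sum). Of 15 hepatocyte genes, Alb and Apoa1 among them, 14 were higher and 0 lower (361 to 379 CPM against 57.6 to 61.7 CPM in sum), and of these 4 lists 0 genes were at 0 in either group. The hepatocyte sum was 181 to 328 CPM in cTEC WT. Of 3 erythroid markers tested 3 were higher (16.5 to 17.5 CPM against 1.29 to 1.68 CPM in sum), and of 14 thymocyte markers 5 were higher and 0 lower. Fibroblast and pericyte markers were higher in 3 and lower in 5 of 10 cases, endothelial ones in 2 and 2 of 8. The sort described in the labels selected EpCAM+ cells and stained for CD45. The part of such cells in the P450 values was not tested.

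The CYP1 genes, whose enzymes oxidise planar aromatic compounds and which are known targets of the aryl hydrocarbon receptor Ahr, split in opposite directions. Cyp1a1 stood at 8.83, 7.09 and 8.46 CPM in the mTEChi WT libraries, at 0.154, 0.0721 and 0.241 CPM in mTEClo WT and at 0.0229 and 0 CPM in cTEC WT. The mTEChi values lay above every other WT library, a log2 fold change of 5.68 (adjusted p = 7.87e-11, SE 0.29) over mTEClo. Cyp1a2, the caffeine demethylase of liver, stood at 36.6, 29.9 and 31.6 CPM in mTEChi WT, 0.044, 0.0618 and 0.131 CPM in mTEClo WT and 0.0229 and 0.0459 CPM in cTEC WT, again with no overlap, and its log2 fold change over mTEClo was 8.65 (adjusted p = 1.71e-09, SE 0.57). Cyp1b1, the member known from non-hepatic tissue, ran the other way with 18, 16.4 and 15.7 CPM in mTEChi WT, 121, 138 and 133 CPM in mTEClo WT and 167 and 145 CPM in cTEC WT. Its mTEChi libraries were all below the lowest of the others, and the log2 fold change was -2.99 (adjusted p = 1.72e-13, SE 0.09), the smallest p of any P450 gene in this comparison. Ahr and its repressor Ahrr were named after their values were seen. Ahr was lower in mTEChi WT (7.68 ± 0.817 CPM, n = 3) than in mTEClo WT (21.1 ± 0.736 CPM, n = 3), with a log2 fold change of -1.48 (adjusted p = 1.83e-09, SE 0.10). Ahrr, itself known as an Ahr target, was higher (3.16 ± 0.179 against 0.105 ± 0.0462 CPM), with a log2 fold change of 4.88 (adjusted p = 1.06e-06, SE 0.56).

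The RefSeq promoter windows (build GRCm38.p6, 250 bases before to 50 after the gene start) of the genes that ran in opposite directions are shown so that their base composition can be set beside the levels. Capitals mark TATAAA on the gene's strand, GCGTG, the core of the Ahr response element, on either strand (CACGC on the reverse), and AGGTCA, the element that many nuclear receptors read, on either strand (TGACCT on the reverse). The motifs do not overlap each other in these windows. The Cyp1a1 window (chr9:57697363-57697662, plus strand) holds TATAAA and GCGTG, and the Cyp1b1 window (chr17:79715012-79715311, minus strand) holds GCGTG on the reverse strand and 16 CG pairs against 4 in Cyp1a1.
Cyp1a1: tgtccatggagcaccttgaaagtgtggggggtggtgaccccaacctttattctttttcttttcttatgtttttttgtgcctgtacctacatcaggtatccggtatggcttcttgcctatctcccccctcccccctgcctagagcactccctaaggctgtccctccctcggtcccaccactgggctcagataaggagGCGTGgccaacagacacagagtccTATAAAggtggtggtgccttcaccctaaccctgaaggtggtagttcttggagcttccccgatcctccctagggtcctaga
Cyp1b1: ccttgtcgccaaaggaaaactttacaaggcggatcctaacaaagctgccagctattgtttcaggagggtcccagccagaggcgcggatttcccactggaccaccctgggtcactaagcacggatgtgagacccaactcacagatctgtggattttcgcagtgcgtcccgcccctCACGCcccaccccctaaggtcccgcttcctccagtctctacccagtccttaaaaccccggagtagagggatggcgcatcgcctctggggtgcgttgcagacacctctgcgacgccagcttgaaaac

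All 3 genes of the CYP26 family, which break down retinoic acid, were higher in mTEChi than in mTEClo, yet they were not ordered alike across populations. Cyp26a1 stood at 96.4, 118 and 87.9 CPM in mTEChi WT, 4.74, 4.33 and 3.12 CPM in mTEClo WT and 0.607 and 0.287 CPM in cTEC WT, so each population lay apart from the next. Its log2 fold change was 4.61 (adjusted p = 4.88e-13, SE 0.15) for mTEChi over mTEClo. Cyp26c1, its neighbour on chromosome 19, stood at 3.91, 4.44 and 3.36 CPM in mTEChi WT and 0.363, 0.371 and 0.186 CPM in mTEClo WT, a log2 fold change of 3.64 (adjusted p = 7.14e-08, SE 0.33). Cyp26b1, on chromosome 6, was highest in the cortex. It stood at 22 and 20.9 CPM in cTEC WT, 12.5, 11 and 13.6 CPM in mTEChi WT and 1.03, 2.16 and 1.18 CPM in mTEClo WT. Its mTEChi libraries were all above the mTEClo ones (log2 fold change 3.05, adjusted p = 2.02e-08, SE 0.25) and below the cTEC ones.

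Of the 13 genes of the list of retinoid handling, 8 were higher and 5 lower in mTEChi WT than in mTEClo WT. Stra6, the retinol uptake receptor, stood at 174, 171 and 192 CPM against 14.6, 12.8 and 13 CPM, a log2 fold change of 3.71 (adjusted p = 1.70e-14, SE 0.08). Crabp1, a carrier of retinoic acid, stood at 48, 47.4 and 44.4 CPM against 0.473, 0.33 and 0.689 CPM, with 6.53 (adjusted p = 1.86e-13, SE 0.19) on the log2 scale. Neither gene overlapped between the groups. The Cyp26a1 window (chr19:37697558-37697857, plus strand) has 26 CG pairs and the Cyp26b1 window (chr6:84593761-84594060, minus strand) 9, and each holds TATAAA, after the gene start in Cyp26a1 and before it in Cyp26b1.
Cyp26a1: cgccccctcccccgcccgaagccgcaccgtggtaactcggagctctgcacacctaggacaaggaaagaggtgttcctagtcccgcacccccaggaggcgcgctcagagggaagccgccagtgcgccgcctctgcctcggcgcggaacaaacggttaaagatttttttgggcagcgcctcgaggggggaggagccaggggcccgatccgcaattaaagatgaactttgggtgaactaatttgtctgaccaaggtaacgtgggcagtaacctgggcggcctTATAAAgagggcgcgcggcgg
Cyp26b1: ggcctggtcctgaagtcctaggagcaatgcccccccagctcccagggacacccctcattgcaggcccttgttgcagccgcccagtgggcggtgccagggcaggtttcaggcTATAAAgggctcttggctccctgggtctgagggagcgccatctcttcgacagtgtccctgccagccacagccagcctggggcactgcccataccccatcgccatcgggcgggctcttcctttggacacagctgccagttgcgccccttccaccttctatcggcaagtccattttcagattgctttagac

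Opposite orders also occurred inside the chromosome 7 run. Cyp2a5 stood at 373, 439 and 413 CPM in mTEChi WT, 119, 113 and 102 CPM in mTEClo WT and 25.1 and 20.1 CPM in cTEC WT. The 3 populations did not overlap, and the log2 fold change of mTEChi over mTEClo was 1.85 (adjusted p = 7.10e-10, SE 0.11). Its closest relative Cyp2a4 reached 1.46 ± 0.648 CPM in mTEChi WT (SD, n = 3), and 37.0% of the 50-base stretches of Cyp2a5 occur in another transcript, mostly of Cyp2a4. Cyp2f2, less than 500 kb away, stood at 58.7, 63.8 and 78 CPM in mTEChi WT and 249, 286 and 241 CPM in mTEClo WT. All mTEChi libraries were below all mTEClo ones, a log2 fold change of -1.98 (adjusted p = 5.17e-10, SE 0.12). In cTEC WT it had 161 and 376 CPM, a gap between replicates wider than the difference between the cTEC and mTEClo means. Cyp2g1, an olfactory mucosa gene of the same run, stood at 51.6, 60.6 and 67.9 CPM in mTEChi WT, 42.9, 38.1 and 41 CPM in mTEClo WT and 11 and 5.71 CPM in cTEC WT. It was modestly higher in mTEChi than in mTEClo, by 0.54 (adjusted p = 9.41e-04, SE 0.12) on the log2 scale. Cyp2b19, a keratinocyte enzyme of arachidonic acid, stood at 36.9, 32.8 and 44.6 CPM in mTEChi WT against 31.4, 21.9 and 21.5 CPM in mTEClo WT and 0 and 3.24 CPM in cTEC WT, a log2 fold change of 0.58 (adjusted p = 0.0258, SE 0.22) over mTEClo. In the whole group of 2a, 2b, 2f, 2g, 2s and 2t genes, 10 of 12 tested were higher and only Cyp2f2 lower. The shares of all genes tested were 42.8% and 36.8%. The Cyp2a5 window (chr7:26835089-26835388, plus strand) holds TATAAA and the reverse AGGTCA, and the Cyp2f2 window (chr7:27119705-27120004, plus strand) holds AGGTCA, no TATAAA and 0 CG pairs.
Cyp2a5: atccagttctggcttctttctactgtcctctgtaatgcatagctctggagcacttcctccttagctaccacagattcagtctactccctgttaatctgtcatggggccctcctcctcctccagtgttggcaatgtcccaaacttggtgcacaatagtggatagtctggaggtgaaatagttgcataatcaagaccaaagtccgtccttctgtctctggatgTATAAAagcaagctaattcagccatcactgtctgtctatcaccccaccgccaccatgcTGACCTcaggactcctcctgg
Cyp2f2: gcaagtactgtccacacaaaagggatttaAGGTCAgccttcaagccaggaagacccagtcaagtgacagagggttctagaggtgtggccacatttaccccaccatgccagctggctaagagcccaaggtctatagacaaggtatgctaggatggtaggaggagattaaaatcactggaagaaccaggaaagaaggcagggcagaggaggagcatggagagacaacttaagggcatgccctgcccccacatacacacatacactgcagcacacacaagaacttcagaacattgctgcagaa

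RefSeq windows were matched by symbol for 70 of the 91 P450 genes and 27025 genes in all. TATAAA was in 31.4% of the P450 windows and in 8.88% of all windows. Among P450 genes detected in mTEChi alone, 12 of 25 windows held it (48.0%), and among those detected in all 3 WT populations 4 of 24 (16.7%). The median number of CG pairs was 2 in the former, 5.5 in the latter and 7 over all genes. GCGTG was in 21.4% of P450 windows and 32.5% of all, and AGGTCA in 27.1% and 16%. These are descriptions of letters in a window, not of factor binding.

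**Figure D4:**
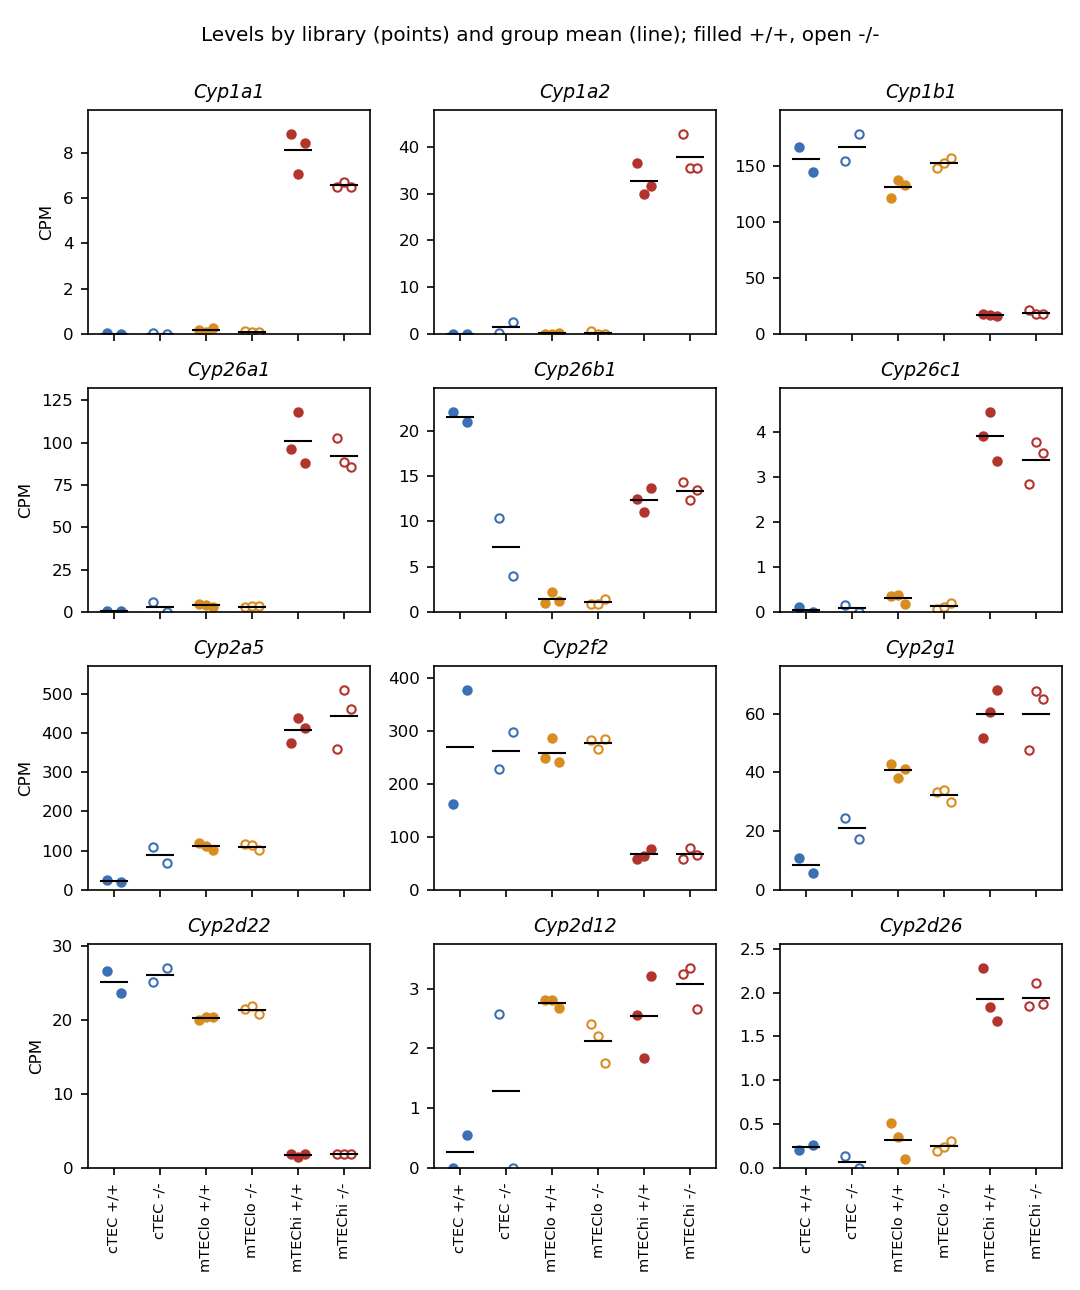
CPM of 12 cytochrome P450 genes in every library (points, filled for Psmb11 +/+ and open for Psmb11 -/-) with the group mean (line); each panel has its own linear axis from 0. Cyp1b1, Cyp2f2 and Cyp2d22 sit lowest in mTEChi, whereas Cyp1a1, Cyp1a2, Cyp26a1 and Cyp2a5 sit highest there and Cyp26b1 sits highest in cTEC WT.

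All 6 genes of steroid hormone synthesis tested were higher in mTEChi than in mTEClo, beside 42.8% of all genes called higher. All 6 were detected in mTEChi WT, 2 in mTEClo WT and 1 in cTEC WT, beside 81.2%, 69.9% and 66% of all genes. Cyp11a1, which cleaves the cholesterol side chain in mitochondria as the entry step, stood at 29, 24.8 and 25.7 CPM in mTEChi WT and 1.3, 1.25 and 1.22 CPM in mTEClo WT. The groups were far apart, with a log2 fold change of 4.37 (adjusted p = 9.60e-11, SE 0.23). Cyp17a1, needed for cortisol, androgens and oestrogens in most mammals, stood at 8.0, 7.94 and 8.58 CPM against 0.451, 0.258 and 0.109 CPM, a log2 fold change of 4.88 (adjusted p = 7.21e-10, SE 0.30). Cyp19a1, the aromatase that makes oestrogens, stood at 3.18, 2.49 and 3.29 CPM against 0, 0.0515 and 0 CPM. Its mTEChi level lay above every library of the other populations. Cyp11b1, which completes corticosterone, stood at 2.81, 3.11 and 2.24 CPM in mTEChi WT and had 2 counts over the 3 mTEClo WT libraries. Cyp11b2, the aldosterone synthase, had 2.41, 1.93 and 1.18 CPM in mTEChi WT and 0 counts in every cTEC and mTEClo library, so it was at least 178-fold higher than in mTEClo WT, taking 3 counts over the group as the floor. Cyp21a1, also of the adrenal cortex, reached 0.679, 0.851 and 0.709 CPM in mTEChi WT, and 21.3% of its stretches are shared with a pseudogene. Among 15 measured partners of steroid synthesis 12 were higher and 3 lower, led by Hsd11b1, which regenerates active glucocorticoid (log2 fold change 2.51, adjusted p = 2.90e-11, SE 0.12), and Hsd17b3, the testosterone forming dehydrogenase of testis (log2 fold change 8.20, adjusted p = 2.91e-10, SE 0.47).

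Genes of sterol, bile acid and vitamin D metabolism were more mixed, with 6 higher and 2 lower of 9 tested. The shares of all genes tested were 42.8% and 36.8%. Cyp7a1, the rate-limiting enzyme of bile acid synthesis in liver, had 0.908, 0.548 and 0.284 CPM in mTEChi WT and 1 count over the 3 mTEClo WT libraries. Cyp8b1, which directs bile acids to cholic acid, had 2.28, 1.67 and 2.67 CPM against 0.0659, 0 and 0.503 CPM, a log2 fold change of 3.52 (adjusted p = 3.69e-04, SE 0.72). Cyp27a1, a mitochondrial sterol hydroxylase of many tissues, stood at 25, 25.8 and 24.3 CPM in mTEChi WT against 13.9, 12.4 and 12.7 CPM in mTEClo WT, a smaller shift of 0.92 (adjusted p = 1.16e-07, SE 0.09). Cyp39a1 and Cyp7b1, which act on oxysterols, were the 2 lower genes. Cyp39a1 stood at 8.02, 9.43 and 6.8 CPM in mTEChi WT, 11.4, 12.3 and 13 CPM in mTEClo WT and 20.7 and 22.5 CPM in cTEC WT. These steps did not overlap, and the log2 fold change of mTEChi over mTEClo was -0.62 (adjusted p = 5.36e-04, SE 0.13). Cyp7b1 stood at 19.1, 22.2 and 20.6 CPM against 23.3, 23.7 and 26.2 CPM, a log2 fold change of -0.27 (adjusted p = 0.00889, SE 0.08). It was not among the 8 P450 genes called lower with RLE scaling or the 8 called lower by DESeq2. Over all genes those fits called 6619 of 19816 and 6666 of 21878 lower.

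The vitamin D genes were each expressed at a low level. Cyp27b1, which activates vitamin D, stood at 3.56, 3.47 and 3.63 CPM in mTEChi WT against 0.495, 0.762 and 0.503 CPM in mTEClo WT, with a log2 fold change of 2.57 (adjusted p = 2.91e-06, SE 0.32). Cyp24a1, which inactivates it, stood at 5.11, 5.0 and 5.71 CPM against 0.0879, 0.0412 and 0.284 CPM, with 5.23 (adjusted p = 9.44e-09, SE 0.40), and its annotated span overlaps that of Pfdn4, so reads over both genes cannot be assigned to either. Cyp2r1, the hydroxylase of the preceding step, stood at 0.658, 0.844 and 0.851 CPM against 0.89, 0.865 and 1.74 CPM and did not pass, with a log2 fold change of -0.59 (adjusted p = 0.128, SE 0.35). The brain sterol enzyme Cyp46a1 stood at 1.93, 1.93 and 3.12 CPM against 0.594, 0.495 and 0.415 CPM, a log2 fold change of 2.18 (adjusted p = 3.68e-05, SE 0.35).

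The Cyp2c genes, liver enzymes of fatty acids and drugs, were detected in 12 of 15 cases in mTEChi WT, in 1 in mTEClo WT and in 0 in cTEC WT. The shares of all genes were 81.2%, 69.9% and 66%. Of 15 tested, 14 were higher in mTEChi WT than in mTEClo WT and 0 lower, beside 42.8% and 36.8% of all genes. In cTEC WT 12 of the 15 had no count. In mTEClo WT 9 of the 15 had no count. Those genes entered the test through their mTEChi counts, so little but a higher call was open to them. Their levels stayed low, between 0.129 CPM for Cyp2c67 and 1.37 CPM for Cyp2c29 as group means in mTEChi WT. Cyp2c29, an epoxygenase of liver, had 1.11, 1.81 and 1.19 CPM there and 0 counts in every cTEC and mTEClo WT library, at least 135-fold above mTEClo WT. The exception was Cyp2c68, with 0.919, 0.822 and 0.865 CPM in mTEChi WT and 1.47, 1.35 and 1.24 CPM in mTEClo WT. It was the single Cyp2c gene detected in mTEClo WT. Its groups did not overlap, yet it did not pass, at -0.66 (adjusted p = 0.0504, SE 0.30), and 43.3% of its stretches are shared, mostly with Cyp2c40.

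In the other CYP2 groups more genes were higher than lower, beside 42.8% of all genes tested called higher and 36.8% lower. These groups are small, and their counts are not read as a trait of a family. In the 2d run 5 of 8 tested were higher and Cyp2d22 was lower. Cyp2d22, the mouse gene most often set beside human CYP2D6, stood at 1.89, 1.48 and 1.91 CPM in mTEChi WT, 19.9, 20.4 and 20.4 CPM in mTEClo WT and 26.6 and 23.6 CPM in cTEC WT, and at -3.56 its log2 fold change was the most negative of the family. In the 2j run, epoxygenases of arachidonic acid, 4 of 7 were higher and 2 lower. Cyp2j13 stood at 18.4, 18.3 and 17 CPM in mTEChi WT against 1.84, 1.34 and 1.68 CPM in mTEClo WT, a log2 fold change of 3.44 (adjusted p = 1.93e-10, SE 0.19). Its neighbour Cyp2j9 fell, from 21, 19.5 and 20.3 CPM in mTEClo WT to 7.31, 8.79 and 6.56 CPM in mTEChi WT, with a log2 fold change of -1.45 (adjusted p = 3.70e-08, SE 0.12). Cyp2j6 also was lower, with 23.6, 27.8 and 22.5 CPM against 35.6, 37.4 and 39.3 CPM and -0.63 (adjusted p = 1.34e-05, SE 0.09). Cyp2e1, the ethanol oxidising enzyme of liver, had 3.15, 2.99 and 2.15 CPM in mTEChi WT and 0 counts in all WT libraries of the other populations, at least 266-fold above mTEClo WT.

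All 7 tested CYP3A genes, steroid and drug oxidases of liver and gut, were higher in mTEChi, beside 42.8% of all genes tested. Cyp3a13 was the most abundant, at 25, 28.4 and 22.3 CPM in mTEChi WT against 3.8, 4.09 and 3.94 CPM in mTEClo WT, with a log2 fold change of 2.65 (adjusted p = 3.59e-11, SE 0.13). Among CYP4 genes, 4 of 5 of the 4a, 4b and 4x group and 6 of 8 of the 4f group were higher, beside the same 42.8%. Cyp4f14, a leukotriene and fatty acid hydroxylase, stood at 10.2, 9.13 and 12.2 CPM against 0.0659, 0.0618 and 0.197 CPM, a log2 fold change of 6.57 (adjusted p = 2.26e-11, SE 0.30). Cyp4f16 stood at 51, 54.8 and 53.8 CPM against 19.9, 18.9 and 19 CPM, with 1.44 (adjusted p = 2.04e-11, SE 0.07), and 17.4% of its stretches are shared. Within the same run Cyp4f17 was lower, with 11.2, 11.1 and 12.6 CPM against 26.6, 19.5 and 19.8 CPM and -0.94 (adjusted p = 6.14e-06, SE 0.13). Cyp4f13 was lower too, with 14.9, 15.5 and 16.7 CPM against 24.3, 22.2 and 21.6 CPM and -0.56 (adjusted p = 1.40e-05, SE 0.08). The flat end of the family was Cyp4v3, a fatty acid hydroxylase of eye and liver, at 39.9, 43.4 and 33.4 CPM against 32.6, 32 and 34.9 CPM (log2 fold change 0.21, adjusted p = 0.0461, SE 0.09), and Cyp20a1, of no known substrate, at 12.4, 12.9 and 11.3 CPM against 12, 12.9 and 13.9 CPM, which did not pass (log2 fold change -0.12, adjusted p = 0.325, SE 0.11).

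Of 18 measured electron donors and genes of haem supply, 6 were higher and 6 lower in mTEChi WT than in mTEClo WT, with a median log2 fold change of -0.06. Fech, which places iron into haem, fell (log2 fold change -1.35, adjusted p = 5.93e-12, SE 0.06), and Alas1, the rate-limiting enzyme of haem synthesis, rose (log2 fold change 2.06, adjusted p = 6.70e-12, SE 0.09). Por, named after its values were seen, was at 57.8 ± 4.95 CPM in mTEChi WT and 88.4 ± 6.65 CPM in mTEClo WT (SD, n = 3 each), which was lower by edgeR at -0.64 (adjusted p = 7.27e-06, SE 0.09) on the log2 scale. Of 27 transcriptional regulators of P450 genes, 11 were higher and 12 lower. Rarg, a retinoic acid receptor, fell (log2 fold change -1.54, adjusted p = 2.09e-11, SE 0.07). Of 29 conjugating enzymes and other partners of xenobiotic metabolism, 18 were higher and 8 lower, among them Ephx2, which opens the epoxides that Cyp2c and Cyp2j enzymes form (log2 fold change 2.34, adjusted p = 1.20e-12, SE 0.08), and Sult1c2, a sulfotransferase (log2 fold change 3.45, adjusted p = 2.12e-12, SE 0.13). Of 18 genes of sterol synthesis and uptake, 10 were higher and 7 lower, with Ch25h lower (log2 fold change -3.75, adjusted p = 6.60e-13, SE 0.13) and Mvd higher (log2 fold change 1.60, adjusted p = 8.63e-10, SE 0.10). Of 12 arachidonate partners, 3 were higher and 6 lower, with a median log2 fold change of -0.08. Ptgds (log2 fold change 5.03, adjusted p = 1.56e-13, SE 0.15) and Ptgs2 (log2 fold change 3.78, adjusted p = 2.07e-12, SE 0.14) were among the 3 higher. In the list of Aire, Fezf2 and partners 4 of 10 were higher and 3 lower. Beside these and the earlier lists of this comparison, 42.8% of all genes tested were called higher and 36.8% lower.

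Comparisons with the cortex rest on 2 cTEC WT libraries with a larger spread. In mTEChi WT against cTEC WT, 71 of 88 tested P450 genes were higher and 10 lower by edgeR's quasi-likelihood test on the 8 WT libraries, beside 43.4% and 34.8% of all genes. A fit with limma's voom and a weight per library gave 66 and 10 of 91, beside 39.3% and 32% of all genes. In the edgeR test, 42 of the 71 higher genes had a mean under 1 CPM over the 16 libraries. Many such genes entered that test only through their mTEChi counts, so its shares and the median below are partly set by the filter. Of the 22 with a mean of 10 CPM or more, 11 were higher and 8 lower (50% and 36.4%). The shares of all genes at that level were 27.6% and 53.3%. Of the 21 between 1 and 10 CPM, 18 were higher and 2 lower. Over all genes at that level, 2992 of 4906 tested were higher and 834 lower. The mean behind that class again includes the mTEChi libraries, so its counts are also partly set in advance. The median log2 fold change of the 88 was 5.85, or 3.89 with the 34 tested genes that had no cTEC WT count at their bound, beside 0.18 over all genes, and the other scaling tried (RLE) moves all genes in this comparison up by 0.15. In mTEClo WT against cTEC WT, 22 were higher and 9 lower, beside 25.2% and 20% of all genes, and the voom fit gave 11 and 5 of 91, beside 17% of all genes in each direction. The shares of P450 genes called in this comparison, 25.0% and 10.2%, were thus no higher than the background. On simulated counts the 8-library fit also called 1273 unchanged genes of 19464 for mTEClo against cTEC and 1185 of 19473 for mTEChi against cTEC. The simulated cTEC spread came from the WT and KO libraries together, and the real fit leaves the KO ones out. These numbers therefore do not measure the false calls of the real fit. Single calls against cTEC are less firm than those between the mTEC populations, since they rest on 2 cTEC WT libraries with a larger spread.

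Many genes with the smallest p in these comparisons have been described. By the same test, Cyp2a5 was higher in mTEClo WT than in cTEC WT by 2.32 (adjusted p = 3.92e-07, SE 0.12) on the log2 scale, Cyp2g1 by 2.30 (adjusted p = 4.17e-05, SE 0.24) and Cyp2j13, at 0.217 and 0.253 CPM in cTEC WT, by 2.79 (adjusted p = 8.48e-06, SE 0.23). Cyp26a1 was higher by 3.20 (adjusted p = 2.12e-05, SE 0.30), and Cyp26b1 was lower, at -3.86 (adjusted p = 3.07e-06, SE 0.27). Lower in mTEClo as well were Cyp39a1 (log2 fold change -0.80, adjusted p = 0.00151, SE 0.15) and the lung enzyme Cyp4b1, with 1.69, 1.41 and 1.99 CPM in mTEClo WT against 3.14 and 5.64 CPM in cTEC WT (log2 fold change -1.35, adjusted p = 0.00696, SE 0.32). Cyp4f16 (log2 fold change 0.53, adjusted p = 4.40e-04, SE 0.08), Cyp4f15 (log2 fold change 2.24, adjusted p = 8.03e-04, SE 0.37), Cyp4f39 (log2 fold change 1.28, adjusted p = 0.00238, SE 0.25) and Cyp2c68 (log2 fold change 5.26, adjusted p = 8.06e-04, SE 0.86) were higher in mTEClo, though Cyp4f15 lost its call with voom. Cyp46a1, Cyp27a1, Cyp20a1, Cyp1b1 and Cyp3a44 were called lower in mTEClo and each lost its call in the fit of all 16 libraries and without at least 1 of the libraries, cTEC WT replicate 2 for Cyp3a44 and cTEC WT replicate 1 for the others. In mTEChi WT against cTEC WT the smallest p-values belonged to Cyp1b1 (log2 fold change -3.23, adjusted p = 1.32e-09, SE 0.09), Cyp2a5 (log2 fold change 4.17, adjusted p = 2.64e-09, SE 0.13), Cyp1a2 (log2 fold change 9.83, adjusted p = 6.81e-09, SE 0.36) and Cyp2d22 (log2 fold change -3.85, adjusted p = 6.92e-09, SE 0.14). Cyp2f2 was lower in mTEChi than in cTEC, at -2.02 (adjusted p = 9.68e-05, SE 0.28). Cyp26a1 (log2 fold change 7.80, adjusted p = 1.17e-08, SE 0.31), Cyp2j13 (log2 fold change 6.23, adjusted p = 1.26e-08, SE 0.25), Cyp4f16 (log2 fold change 1.97, adjusted p = 1.74e-08, SE 0.08) and Cyp3a13 (log2 fold change 3.55, adjusted p = 8.24e-07, SE 0.25) were among the higher genes. Cyp39a1 (log2 fold change -1.42, adjusted p = 1.14e-05, SE 0.15), Cyp2j9 (log2 fold change -1.39, adjusted p = 1.15e-05, SE 0.14), Cyp4f17 (log2 fold change -1.07, adjusted p = 1.01e-04, SE 0.15) and Cyp20a1 (log2 fold change -0.44, adjusted p = 0.00578, SE 0.11) were among the lower.

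The knockout comparisons asked whether loss of Psmb11 changed P450 transcripts in each population. No P450 gene passed in any of them, though in cTEC the test called no gene at all. In mTEClo 49 P450 genes were tested, 0 were called, against 0 genes called higher over the whole table and 0.00586% called lower, which was Psmb11 alone. An unadjusted p under 0.05 was found for 4 of the 49 (8.16%), beside 12.5% of all genes. In mTEChi 88 were tested, 0 were called, beside 0% and 0.0051% of all genes, and 9 (10.2%) had an unadjusted p under 0.05, beside 4.19% of all genes. In cTEC 40 were tested, 0 were called, beside 0% of all genes in each direction, and 8 (20%) had an unadjusted p under 0.05, beside 12.8% of all genes. Psmb11 itself did not pass by that edgeR test in cTEC (log2 fold change -7.19, adjusted p = 0.0855, SE 1.15). The absence of a P450 call in cTEC thus says little. DESeq2 called 0 P450 genes in mTEChi, beside 0.00916% of all genes higher and 0.0183% lower. It called 0 higher and 1 lower in mTEClo, beside 0.427% and 1.13%, and 3 higher and 0 lower in cTEC, beside 3.02% and 1.63%. The self-test on simulated counts recovered 89% of 2-fold changes in mTEClo (17030 genes) and 93% in mTEChi (19575 genes). In cTEC it recovered 47% (15920 genes). The cTEC fit of the measured counts called 0 of 16423 genes in each direction, so the 47% does not describe that fit. These shares are not split by level, so they do not give the recovery for P450 genes with low counts.

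In the mTEC populations the genes with the smallest p differed in size of change. Cyp2g1 in mTEClo stood at 33.3, 34.2 and 29.9 CPM in KO and 42.9, 38.1 and 41 CPM in WT. The groups did not overlap, and the log2 fold change was -0.34 (unadjusted p = 0.00151, adjusted p = 0.203, SE 0.08). Cyp1b1 stood at 148, 153 and 157 CPM in mTEClo KO against the WT values above, a log2 fold change of 0.21 (unadjusted p = 0.0137, adjusted p = 0.307, SE 0.07). Cyp27a1 in mTEClo was at 11.7, 11.2 and 9.86 CPM in KO, with -0.27 (unadjusted p = 0.0286, adjusted p = 0.346, SE 0.11), and Cyp26c1 at 0.0632, 0.119 and 0.192 CPM in KO, with -1.30 (unadjusted p = 0.0497, adjusted p = 0.398, SE 0.60). In mTEChi, Cyp3a16 stood at 1.71, 3.27 and 2.1 CPM in KO and 5.2, 3.59 and 2.96 CPM in WT, groups that overlapped, with a log2 fold change of -0.75 (unadjusted p = 0.00762, adjusted p = 0.999, SE 0.25). Cyp17a1 stood at 9.88, 10.4 and 10.5 CPM in mTEChi KO, above all its WT libraries, with 0.32 (unadjusted p = 0.00844, adjusted p = 0.999, SE 0.10). Cyp1a1 stood at 6.51, 6.74 and 6.51 CPM in mTEChi KO, below all its WT libraries, with -0.31 (unadjusted p = 0.0221, adjusted p = 0.999, SE 0.12). Cyp2b13 stood at 0.347, 0.205 and 0.397 CPM in KO and 0.136, 0.141 and 0.0709 CPM in WT, near the detection level, with 1.41 (unadjusted p = 0.0203, adjusted p = 0.999, SE 0.55).

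The genes leading in RPKM had these values in the knockout. Cyp2a5 stood at 359, 509 and 461 CPM in mTEChi KO and Cyp2f2 at 283, 266 and 284 CPM in mTEClo KO, each overlapping the WT values. Cyp26a1 stood at 102, 88.8 and 85.5 CPM in mTEChi KO, a log2 difference of -0.14 (unadjusted p = 0.169, adjusted p = 0.999, SE 0.10) from WT. Whether the knockout effect differed between mTEChi and mTEClo was tested as an interaction, in which 0 of 88 P450 genes passed, beside 0.00505% of all genes in each direction. An unadjusted p under 0.05 was found for 7 (7.95%), beside 5.19% of all genes. The smallest p belonged to Cyp2c29, which had 0.144, 0.0199 and 0.0672 CPM in mTEClo KO and 0 in mTEClo WT, and the adjusted p was 0.759. The log2 difference of the effects was 0.37 for Cyp27a1 and 0.65 for Cyp2j13. Cyp3a59, also among the 4 smallest p, had 0 counts in mTEClo WT and 18 in mTEClo KO, which leaves its difference of effects without a fitted size.

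**Figure D5:**
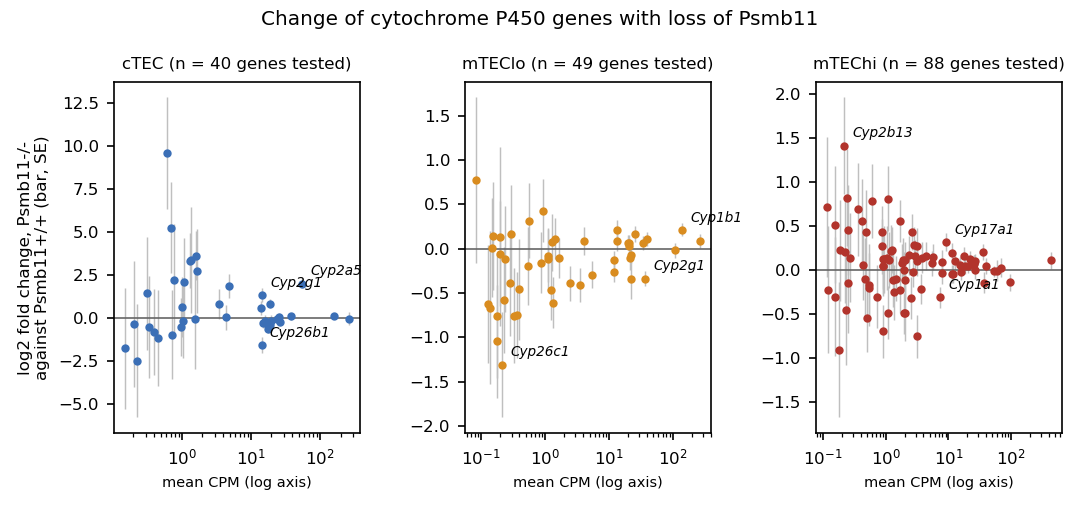
Log2 fold change of Psmb11 -/- against Psmb11 +/+ (y axis, points with SE bars) for the cytochrome P450 genes tested in cTEC (40), mTEClo (49) and mTEChi (88), by mean CPM of both genotypes on a log x axis; the y axes differ. In mTEClo and mTEChi the abundant genes lie close to 0, and in cTEC the bars are wide, with a median SE of 1.16 against 0.30 and 0.24.

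In cTEC, 20 of the 40 tested P450 genes had a log2 fold change above 0 in the knockout, and the genes with the smallest p are given as values. Cyp2a5 had 25.1 and 20.1 CPM in WT against 109.7 and 69.9 CPM in the knockout. The groups did not overlap, and the log2 fold change was 2.0 (unadjusted p = 1.59e-04, adjusted p = 0.0687, SE 0.27). It passed with no filter on low counts (adjusted p = 0.000244), in DESeq2 (5.68e-09), in the voom fit (0.00806) and with any 1 of the 4 libraries left out, but not with RLE scaling (0.067). With a library left out, 1 genotype rests on a single library, which is assumed to vary like the other genotype. Cyp4f16 stood at 24.2 and 24.1 CPM in KO against 13 and 14 CPM, with 0.84 (unadjusted p = 0.0127, adjusted p = 0.258, SE 0.25). Cyp2g1 stood at 24.4 and 17.4 CPM against 11 and 5.71 CPM, with 1.34 (unadjusted p = 0.0142, adjusted p = 0.268, SE 0.41). Cyp26b1, the member of its family with the highest cTEC level, stood at 10.4 and 4.0 CPM against 22 and 20.9 CPM, both KO libraries below both WT libraries, with -1.56 (unadjusted p = 0.0147, adjusted p = 0.272, SE 0.48). Several steroid and retinoid genes had counts in KO replicate 1 alone, among them Cyp11a1 (5.03 and 0 CPM), Cyp17a1 (3.48 and 0 CPM) and Cyp26a1 (5.82 and 0 CPM). Cyp2c40 (0 and 2.92 CPM) had counts in replicate 2 alone, and Cyp1a2 (0.147 and 2.63 CPM) most of its counts there. Without replicate 1 the test called 6 P450 genes higher and 1 lower of 43, beside 8.77% and 12.1% of all genes. Without replicate 2 it called 3 and 1 of 55, beside 4.44% and 1.7%. Each of these fits sets a single KO library against 2 WT libraries.

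Markers of other epithelial cells moved in the same cTEC KO libraries. Aire stood at 107 and 48.4 CPM in KO and 14 and 11.2 CPM in WT. The 15 tuft cell markers summed to 1188 to 1579 CPM in KO against 534 to 619 CPM in WT, and the 17 medullary markers to 5435 to 5604 CPM against 4458 to 4833 CPM, while the 13 cortical markers, Psmb11 included, summed to 4910 to 6597 CPM against 7660 to 8869 CPM. Of these lists 0 genes passed in cTEC, and 1 medullary marker was at 0 in both genotypes, while 0 tuft cell and 0 cortical markers were. Their part in the P450 values of the cTEC KO libraries was not tested.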

How the data were processed

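RNA from sorted mouse thymic epithelial cells was sequenced in 16 libraries. The authors deposited read counts per gene, made per the submitters' processing notes with CASAVA 1.8.2 and HTSeq 0.5.4p1 on build mm10, and RPKM values per gene for the same libraries, as the authors named them. The aligner, annotation and the gene lengths behind the RPKM are not given in the sources used here. Libraries were made with a TruSeq kit that does not mark strand, per the labels. HTSeq set aside 0.541% to 0.887% of reads as ambiguous between genes, and these count for neither gene. Of all reads, 13.7% to 30.4% fell in no gene, and the 5 rows that name no gene were left out. Genes in near-identical families may have split or lost reads, and 0 reads were counted as multiply aligned.

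Counts were tested with edgeR 4.0.16 (quasi-likelihood F test, TMM scaling, filterByExpr, R 4.3.3), with Benjamini-Hochberg adjusted p-values across every gene in the fit, called at 0.05. Knockout and WT were fitted within each population, mTEChi and mTEClo on 12 libraries, and comparisons with cTEC on the 8 WT libraries. The SE was taken from the fold change and the F statistic. Levels are CPM on TMM-scaled totals. RPKM, which corrects for length, was used to compare genes. Each fit was tested on simulated counts. Alternatives were RLE scaling, no filter, DESeq2 1.42.0, limma 3.58.1 voom with a weight per library, 1 fit of 16 libraries, the replicate number as a block and leaving out libraries. Giving cTEC KO values by library was chosen after seeing the data.

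Genes were named as the 8 highest by RPKM in each WT population, the 8 with the smallest p per direction among called genes without overlap and with at least 0.5 CPM, and otherwise the 4 with the smallest p. For the other lists, the 2 genes with the smallest p were named. 1 such gene is not reported here. Further genes described by role were named after their values were seen, and the P450 genes and lists were chosen with earlier results of these data known. Promoter windows came from RefSeq and transcripts from GENCODE.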

Additional observations from a re-analysis of the deposited data

How the results depend on the processing

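Of the named genes, the 192 alternative values for mTEChi against mTEClo in WT kept their direction and their side of the threshold, as did 175 of 176 for mTEChi against cTEC and 144 of 176 for mTEClo against cTEC, where 32 lost the call. No value changed sign among those called. These values cover the genes named by smallest p, so Cyp7b1, which lost its call with RLE scaling and DESeq2, is not among them. For knockout against WT, 48 of 48 values in mTEChi, 47 of 48 in mTEClo and 22 of 40 in cTEC stayed uncalled. In cTEC, P450 genes called higher numbered 1 with no filter (1.56% of all genes), 1 with voom (0.81%), 2 with the replicate number as a block (2.65%), 3 by DESeq2 (3.02%), 12 in the fit of all 16 libraries (13.2%) and 1 to 6 with a library left out (0.847% to 8.77%). Those called lower numbered 1 with the block (1.72%), 3 in the 16-library fit (10.2%) and 0 to 1 with a library left out (0.086% to 12.1%). In mTEClo, DESeq2 called 1 lower, Cyp2g1 (1.13% of all genes). For mTEClo against cTEC in WT, voom called 11 higher and 5 lower (17% of all genes each), and the genes called lower numbered 4 with the block (15.4%), 3 in the 16-library fit (15.6%) and 4 to 9 with a library left out, with 5, 4 and 5 without mTEClo WT replicates 1, 2 and 3. The cause was not tested. The correlation of deviations between same-numbered libraries was -0.000125 in cTEC, -0.092 to 0.176 in mTEClo and -0.00944 to 0.148 in mTEChi between genotypes. Between mTEClo and mTEChi it was -0.125 to 0.00189 in WT and 0.0696 to 0.184 in KO. Not every pair in any of these was over 0.1, so the replicate block was kept as an alternative. At 1 CPM in every library, 21 P450 genes were detected in cTEC WT, 27 in mTEClo WT, 23 in mTEClo KO, 53 in mTEChi WT and 53 in mTEChi KO. Of all genes, 57.0%, 59.6%, 59.3%, 70.0% and 70.4% reached that level in the same groups. The P450 share thus lay below that of all genes in mTEChi too at 1 CPM. In cTEC KO at 0.1 CPM the count was 49 by the group mean, and 28 to 53 with a library left out. Depth limits the low genes most, since 0.1 CPM is 6.5 to 15.9 counts, and 2 libraries per group limit every cTEC value.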

Other observations

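Some genes of the P450 fold have symbols outside the form used to choose the family. Cyp51, which demethylates lanosterol in cholesterol synthesis, stood at 86.5 ± 3.33 CPM in mTEChi WT and 40 ± 2.47 CPM in mTEClo WT (SD, n = 3 each), against 26.0 ± 4.68 CPM in cTEC WT (SD, n = 2). It was higher in mTEChi than in mTEClo, with a log2 fold change of 1.09 (adjusted p = 7.94e-09, SE 0.08) by edgeR's quasi-likelihood test. Ptgis, the prostacyclin synthase, was higher by 4.20 (adjusted p = 9.91e-07, SE 0.48) on the same scale and Tbxas1, the thromboxane synthase, by 2.61 (adjusted p = 2.17e-04, SE 0.50). Cyp4a12a, a fatty acid hydroxylase of mouse kidney, had 8.51 ± 9.23 CPM in cTEC WT (SD, n = 2), 0.363 ± 0.261 CPM in mTEClo WT and 2.44 ± 0.573 CPM in mTEChi WT (SD, n = 3 each), so its cTEC replicates differed by more than its mean. Cyp2ab1 stood at 2.80 ± 0.736 CPM in mTEChi WT, 2.60 ± 0.665 CPM in mTEClo WT and 0.527 ± 0.0636 CPM in cTEC WT. Cyp3a41b had 0 counts in every library.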
